A study of Homo sapiens with 27 samples.

Results

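PHF19 and PRKAR1B are 2 genes on the minus strand of chromosomes 9 and 7 at which 3'-end sequencing gave peaks in several places. PHF19 (NCBI Gene 26147) encodes a Polycomb-like protein, an accessory subunit of the Polycomb repressive complex that methylates histone H3 at lysine residues and silences genes. PRKAR1B (NCBI Gene 5575) encodes a type I beta regulatory subunit of cyclic AMP-dependent protein kinase, which holds the catalytic subunits inactive until cyclic AMP binds. A gene has more than one transcript end when the pre-mRNA is cut and polyadenylated at more than one site. A cut in an intron, upstream of the last exon, leaves a shorter transcript without the downstream exons, and its use is set against that of the distal site at the end of the last exon. Cisplatin and oxaliplatin are platinum drugs that crosslink DNA, and such lesions can stop RNA polymerase on the template.

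The ends were taken as merged peaks of 3'-end sequencing on the minus strand (overlap of at least 1 base over the 27 libraries), within the window of each gene in hg19 coordinates. This gave 26 of the 233020 merged peaks of the series, 8 for PHF19 and 18 for PRKAR1B. The distal end was the strongest peak in the last 3 kb of the window. Every other end lies upstream of it and is named by its distance from it. The 14 ends listed in at least 3 libraries, 5 of PHF19 and 9 of PRKAR1B, are described each. No annotation of hg19 was used here, so whether each earlier end lies in an intron was not checked. Whether each peak is a site where the transcript is cut and polyadenylated was not tested either. The word end stands for such a peak throughout.

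The libraries came from 3 lines of human non-small cell lung cancer cells. H358 cells were treated with DMSO (the vehicle), 100 µM cisplatin or 100 µM oxaliplatin, and RNA of total cells was sequenced. A549 cells and A549R cells, the cisplatin-resistant line of the series, were treated with DMSO or 100 µM cisplatin, and RNA of the cytosol was sequenced. RNA of heavy polysomes, the fraction of mRNA loaded with many ribosomes, was sequenced from A549 cells treated with DMSO or 100 µM cisplatin. Each of the 9 groups has 3 libraries. The labels do not say whether replicates came from separate cultures, so p-values measure the spread between libraries only. Treatment time is not used here, because it is not given in the sources used here, and neither is how A549R was derived. In RNA of a whole culture, fewer cells using an end and less RNA of that end per cell cannot be told apart.

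The deposited lists hold 3024814 to 11997535 counts per library, and no entry has fewer than 5 counts. They are of 2 kinds. The 16 long lists hold 73.1% to 79.4% of the peak numbers that the authors gave out, and the 11 short lists hold 30.6% to 42.3%. The short lists are those of H358 oxaliplatin (3), A549 cytosol (6) and replicate 3 of both polysome groups (2). Of the merged peaks, 10484 are in all 16 long lists and in no short list, and 0 are in all short lists and in no long list. An end found in no short list therefore has no value in a short list, and no comparison was made with it there. An unlisted end of the other class was taken as 0, on the assumption that it has 0 to 4 counts. The filter behind the lists is not given, so a larger count that was left out cannot be told from this.

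**Figure D1:**
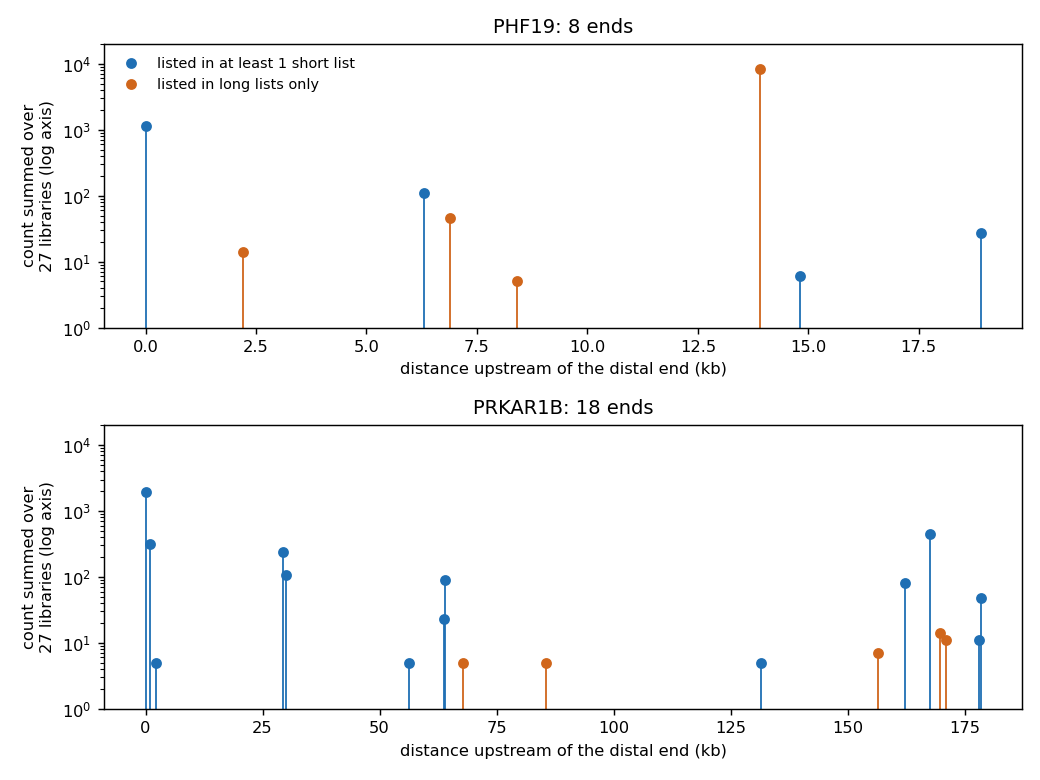
Ends of PHF19 (upper panel) and PRKAR1B (lower panel) by distance upstream of the distal end in kb, with the count summed over 27 libraries on a log axis. Blue ends are in at least 1 short list and orange ends only in long lists. The end 13.9 kb upstream in PHF19, with 8218 counts, is the highest point and is orange.

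In the long lists, most counts of the PHF19 window were at a peak far upstream of the distal end. The distal end lies at chr9:123617929-123618381 (hg19, minus strand), was in all 27 lists and held 1158 counts in all. The end 13.9 kb upstream lies at chr9:123631828-123632226, was in all 16 long lists and in 0 of the 11 short ones, and held 8218 counts. All 11 short lists skip 1 to 4 peak numbers between the listed peaks on either side of this end, over 8436 to 52286 bases. Short lists that lack the 6.3, 6.9 or 18.9 kb end also skip 1 to 4 numbers around it. Mostly this is the same stretch that holds the 13.9 kb end, so it is no separate check. The long lists that lack the 6.3, 6.9 or 18.9 kb end (8, 11 and 13 lists) skip no number around it. Short lists leave out most peak numbers, so a skipped number in such a stretch need not be the 13.9 kb end. The skips alone do not show that the 13.9 kb end was found and left out. In the 3 H358 DMSO libraries it took 88.4% of all counts in the gene window, and in the A549R DMSO libraries 91.7%. The distal end took 9.5% and 6.04% of the counts.

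The remaining PHF19 ends were small. The end 6.3 kb upstream, in 12 lists, held 110 counts, the end 6.9 kb upstream, in 5 lists, 46 counts, and the end 18.9 kb upstream, in 5 lists, 27 counts. A further 3 ends were in 1 or 2 lists each, with 5 to 9 counts. Across the 12 DMSO libraries the 6.3 kb end was listed in 9, and across the 12 cisplatin libraries in 2. At 6 to 16 counts where it was listed, this end stays close to the minimum of 5, and the distal end of PHF19 was also lower with cisplatin. Its mean count was under the minimum for the level test, so that test was not run.

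**Figure D2:**
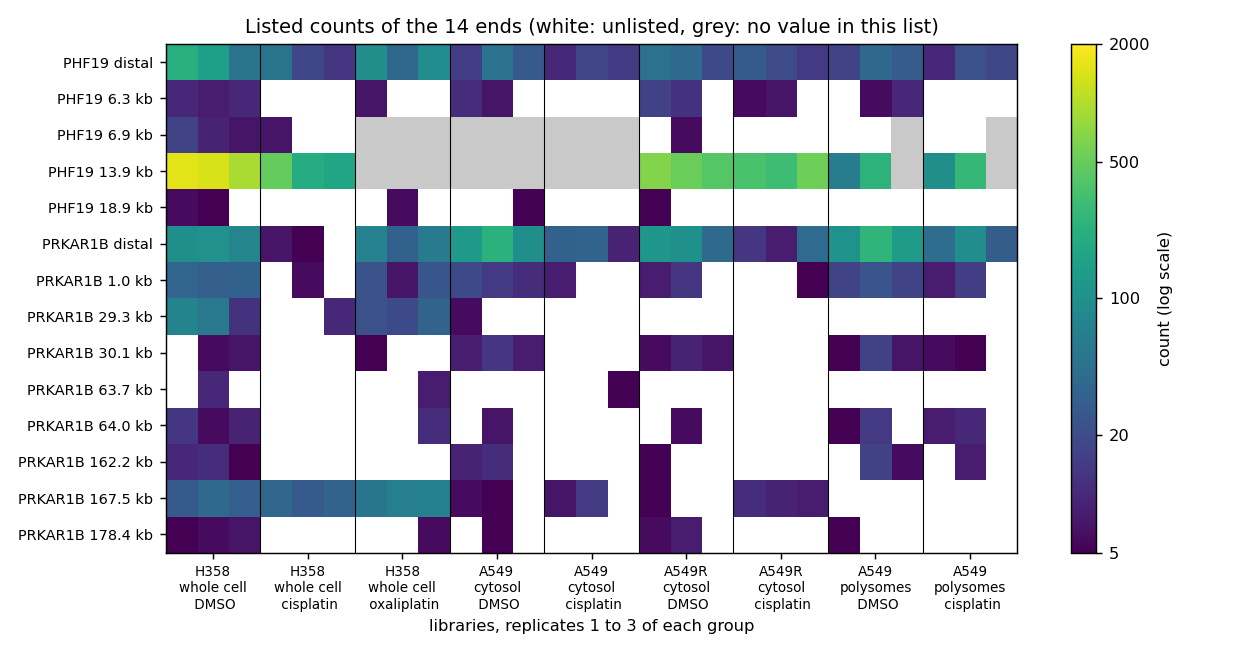
Counts of the 14 ends (rows) in the 27 libraries (columns, replicates 1 to 3 of each group) on a log colour scale. White cells are unlisted ends and grey cells are ends that have no value because the list is a short one. The row of the 13.9 kb end of PHF19 is the brightest, and the row of the 167.5 kb end of PRKAR1B stays filled in all 9 H358 libraries and is white in all 6 polysome libraries.

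In H358 cells PHF19 lost counts at both ends together with cisplatin. The 13.9 kb end had 1568, 1385 and 938 counts in the DMSO libraries and 490, 202 and 171 with cisplatin. As CPM, the count scaled by the total of the list, this was 169 ± 14.0 with DMSO and 56.0 ± 16.4 with cisplatin (mean ± SD, n = 3), and the groups do not overlap. The level fell by 1.61 ± 0.25 on the log2 scale (SE, edgeR quasi-likelihood test, adjusted p = 0.00758). The distal end had 221, 147 and 50 counts with DMSO and 50, 18 and 13 with cisplatin. It fell by 1.74 ± 0.48 (edgeR adjusted p = 0.0372). Both of the 2 PHF19 ends tested were thus called lower, where 13.4% of the 47950 peaks tested were called lower and 5.30% higher. That balance turns with the scaling, to 8.11% lower and 11.6% higher with the size factors of DESeq2 in edgeR and 11.1% lower and 15.4% higher in DESeq2 itself. For the distal end the call was lost without DMSO replicate 1 (adjusted p = 0.119) or replicate 2 (0.0741), without cisplatin replicate 2 (0.11) or replicate 3 (0.102), with DMSO and cisplatin fitted alone (0.0625), with peaks of the short lists only (0.0849), with the size factors of DESeq2 in edgeR (0.0827) and in DESeq2 itself (0.0566). The 13.9 kb end passed in all of these that could be run.

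**Figure D3:**
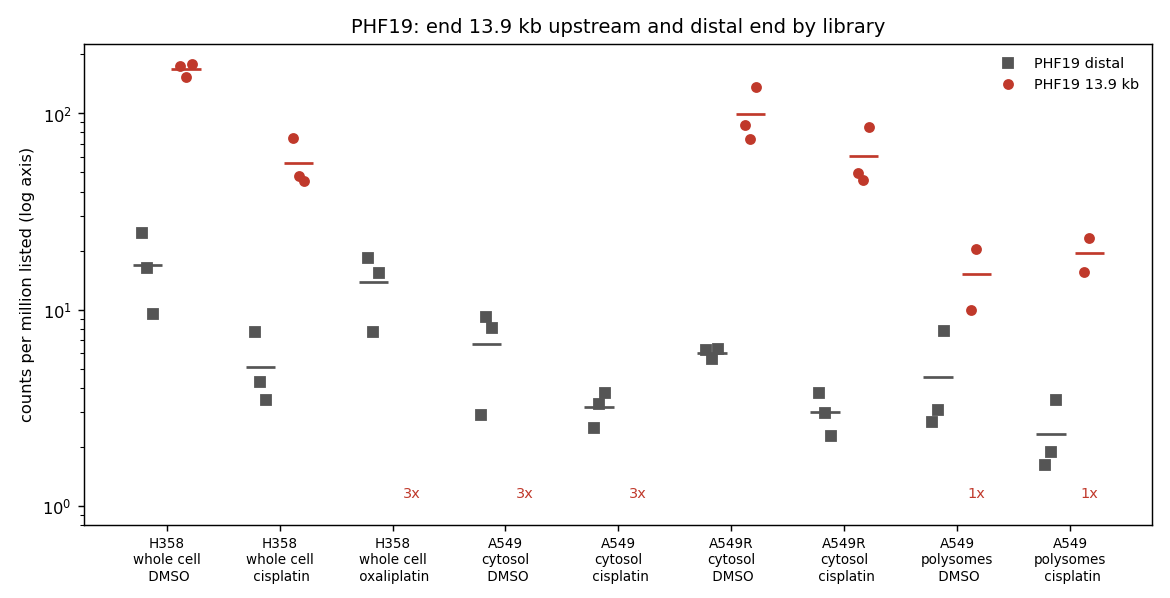
CPM (the count scaled by the total of the list, log axis) of the 13.9 kb end (red circles) and the distal end (grey squares) of PHF19 by library, with the mean as a bar. Red numbers at the bottom count the libraries of a group whose short list has no value for the 13.9 kb end. In H358 cells both ends sit lower with cisplatin than with DMSO, and the 13.9 kb end stays far above the distal end in each library that gives both.

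The share of the 13.9 kb end, as a percentage of the counts of that end and the distal end together, differed by less than the spread between libraries. In H358 it was 87.6%, 90.4% and 94.9% with DMSO and 90.7%, 91.8% and 92.9% with cisplatin. The means were 91.0% ± 3.68 and 91.8% ± 1.1 (SD, n = 3), and the cisplatin values lie inside the range of the DMSO values. The exact two-sided permutation test gave p = 0.8, where 3 libraries against 3 cannot go below 0.1. The test of the ratio of both ends within libraries gave a log2 change of 0.07 ± 0.43 (edgeR adjusted p = 0.971), with an interval of 1.96 SE on either side from -0.76 to 0.90.

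In A549R cytosol the 13.9 kb end had 663, 516 and 415 counts with DMSO and 361, 308 and 527 with cisplatin. In CPM the groups overlap, because cisplatin replicate 3 at 85.4 is above the lowest DMSO library at 73.7. The level differed by -0.68 ± 0.38 (log2, edgeR adjusted p = 0.72) and did not pass. The distal end had 47, 39 and 19 counts with DMSO and 27, 20 and 14 with cisplatin, a difference of -0.97 ± 0.38 (edgeR adjusted p = 0.417). The share was 94.0% ± 1.43 with DMSO and 94.8% ± 2.32 with cisplatin (SD, n = 3, exact permutation p = 0.6). The ratio of the ends differed by 0.29 ± 0.48 (log2, edgeR adjusted p = 1), with an interval of 1.96 SE on either side from -0.65 to 1.23.

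In A549 cells the 13.9 kb end can be read in the polysome libraries of replicates 1 and 2 alone, and not in the cytosol, so its polysome level has no cytosol value to stand against. The counts were 63 and 243 with DMSO and 96 and 272 with cisplatin, beside 17 and 37 counts at the distal end with DMSO and 10 and 22 with cisplatin. The shares were 78.8% (95% Wilson interval 68.6 to 86.3) and 86.8% (82.3 to 90.3) with DMSO and 90.6% (83.5 to 94.8) and 92.5% (88.9 to 95) with cisplatin. Both cisplatin shares are above both DMSO shares, with 2 libraries a group, as in 14.9% of the pairs of neighbouring ends in these 4 libraries. The ratio test on these 4 libraries gave 1.13 ± 0.54 (log2, edgeR adjusted p = 1). Wilson intervals cover counting error only, since PCR copies cannot be told from separate molecules. The distal end of PHF19 in A549 cytosol had 15, 49 and 27 counts with DMSO and 10, 18 and 14 with cisplatin, a difference of -1.01 ± 0.39 (log2, edgeR adjusted p = 0.38).

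Of the PHF19 ends described each, only the distal end and the 6.3 kb and 18.9 kb ends can be read with oxaliplatin. The 14.8 kb end was listed in 1 library only, of H358 with oxaliplatin, with 6 counts. The distal end had 97, 38 and 93 counts, or 13.8 ± 5.48 CPM against 16.8 ± 7.59 with DMSO (SD, n = 3), and the groups overlap. The level test gave -1.46 ± 0.47 (log2, edgeR adjusted p = 0.0285), but the median of all peaks moved by -1.30 in this comparison, in which a short-list group meets a long-list group. Over peaks of the short lists only, where the median moved by -0.03, the distal end differed by -0.71 (edgeR adjusted p = 0.613) and was not called. Called lower were 46.9% of peaks in the first fit and 2.29% in the second.

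PRKAR1B showed another pattern, in which its farthest strong end kept its counts in H358 cells with cisplatin while the distal end lost them. The distal end lies at chr7:588801-589256 (hg19, minus strand), was in 26 lists and held 1969 counts. The end 167.5 kb upstream, at chr7:756252-756489, was in 17 lists, 10 long and 7 short, and held 446 counts. It therefore has a value in every library. Between them, ends 1.0 kb (318 counts, 19 lists), 29.3 kb (235 counts, 8 lists) and 30.1 kb (108 counts, 14 lists) upstream were the next strongest. The 162.2 kb end held 81 counts, the 64.0 kb end 89, the 178.4 kb end 48 and the 63.7 kb end 23. A further 9 ends were in 1 or 2 lists each, with 5 to 9 counts.

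In H358 cells the distal end of PRKAR1B had 98, 103 and 77 counts with DMSO. With cisplatin it had 7 and 5 counts in replicates 1 and 2 and was unlisted in replicate 3. With oxaliplatin it had 71, 32 and 61. The cisplatin libraries are all far below the DMSO libraries. The level fell by 3.94 ± 0.62 on the log2 scale with cisplatin (edgeR adjusted p = 0.00505), and it was 2.49 ± 0.62 lower than with oxaliplatin, a log2 difference of -2.49 (edgeR adjusted p = 0.00834). Both calls held when any 1 library of the groups compared was left out and in each other setting tried. Of the 4 PRKAR1B ends tested, this was the only one called in either comparison, beside 13.4% of all peaks called lower against DMSO and 6.95% against oxaliplatin. Against DMSO, oxaliplatin gave -1.44 ± 0.51 (edgeR adjusted p = 0.0422), a call that was lost with the replicate number as a block (adjusted p = 0.0528), without any 1 of the 6 libraries and over peaks of the short lists only, where the difference was -0.72 (adjusted p = 0.684).

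The 167.5 kb end had 27, 40 and 30 counts with DMSO, 36, 27 and 34 with cisplatin and 51, 66 and 70 with oxaliplatin. The summed count was 97 with DMSO and 97 with cisplatin, from cisplatin libraries with fewer counts in all. In CPM the means were 4.38 ± 1.35, 6.97 ± 1.83 and 11.5 ± 1.88 (SD, n = 3), and the oxaliplatin libraries lie above all others. The level differed from DMSO by 0.66 ± 0.32 (log2, edgeR adjusted p = 0.171) with cisplatin and by 0.29 ± 0.32 (adjusted p = 0.495) with oxaliplatin, so neither passed. These 2 values depend on the scaling. For cisplatin the difference was 1.21 with the size factors of DESeq2 (edgeR adjusted p = 0.0451) and 1.16 over peaks of the short lists only (0.0453), both past the threshold. The median of all peaks was -0.33 in the first fit, 0.21 with those size factors and -0.42 over peaks of the short lists. For oxaliplatin the difference was 1.01 over peaks of the short lists (edgeR adjusted p = 0.227), and CPM in a short list is scaled by a total that leaves peaks out.

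**Figure D4:**
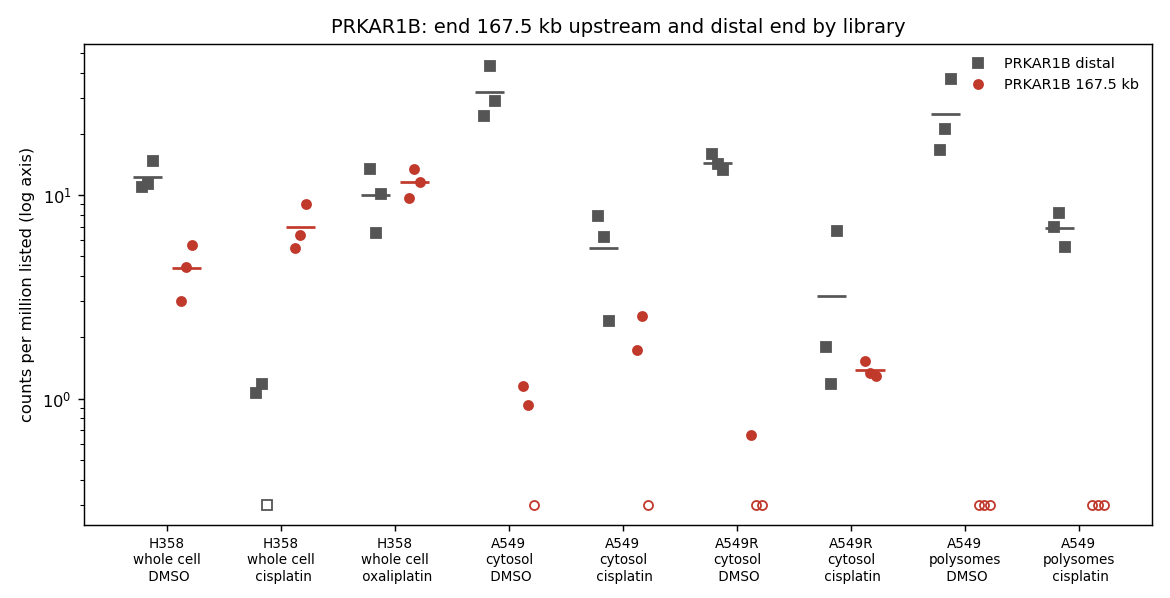
CPM (the count scaled by the total of the list, log axis) of the 167.5 kb end (red circles) and the distal end (grey squares) of PRKAR1B by library, with the mean as a bar where all 3 libraries list the end. Open symbols at the bottom are unlisted ends, which were assumed to have 0 to 4 counts. In H358 cisplatin libraries the red points are above the grey ones, in H358 DMSO libraries below them, and all 6 polysome libraries have open red symbols.

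As a share of both ends, the 167.5 kb end of PRKAR1B made up 21.6%, 28.0% and 28.0% in the H358 DMSO libraries. With cisplatin it made up 83.7% and 84.4% in replicates 1 and 2 and 100% in replicate 3, or at least 89.5% if the unlisted distal end had 4 counts. With oxaliplatin it made up 41.8%, 67.3% and 53.4%. The 3 groups do not overlap. The means were 25.9% ± 3.70, 89.4% ± 9.22 and 54.2% ± 12.8 (SD, n = 3). Each of the 3 pairs of groups had an exact two-sided permutation p = 0.1, the smallest that 3 libraries against 3 can give (adjusted p = 0.925 over the 74 shares tested). Shares were also taken for pairs of peaks up to 50 kb apart, closer than these 2 ends. Of such pairs 13.8% had shares without overlap and higher with cisplatin than with DMSO, and, over peaks of the short lists only, 8.77% were higher with oxaliplatin than with DMSO and 11.9% with cisplatin than with oxaliplatin.

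The ratio of the 167.5 kb end to the distal end within libraries rose in H358 with cisplatin by 4.69 ± 0.95 on the log2 scale (edgeR adjusted p = 0.0279). It was called higher together with 3.22% of the 26941 pairs of ends tested. This call was lost with no count minimum (adjusted p = 0.29), with DMSO and cisplatin fitted alone (0.0728), and without DMSO replicate 1 (0.0815), 2 (0.0764) or 3 (0.0617) or cisplatin replicate 2 (0.0522), while the estimate stayed between 3.90 and 5.25. Oxaliplatin against DMSO gave 1.77 ± 0.85 (edgeR adjusted p = 0.272) and cisplatin against oxaliplatin 2.92 ± 0.94 (adjusted p = 0.0571), and neither passed, where 7.85% and 11.2% of pairs were called higher, or 0.897% and 2.62% over peaks of the short lists only. The last passed without cisplatin replicate 3 (adjusted p = 0.0382). Both drugs were given at 100 µM and share the DMSO libraries as their control.

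**Figure D5:**
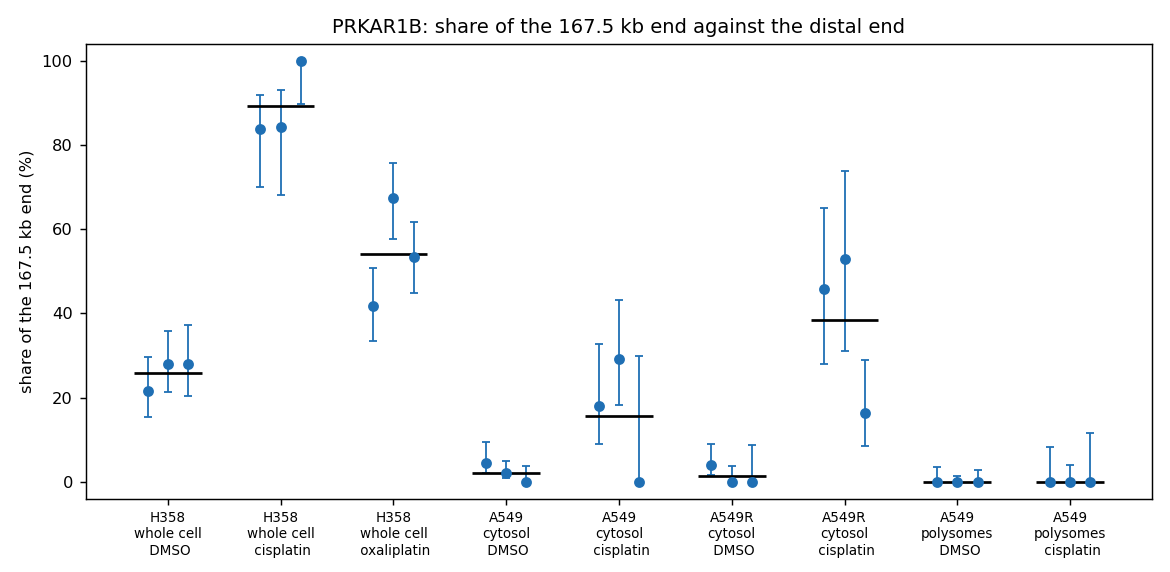
Share of the 167.5 kb end of PRKAR1B, as a percentage of its counts and those of the distal end, in each library, with 95% Wilson intervals as thin bars and the group mean as a thick bar. The H358 cisplatin libraries are at 83.7% to 100%, the A549R cisplatin libraries at 16.3% to 52.9%, and all 6 polysome libraries at 0%.

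The other PRKAR1B ends were listed in few or none of the H358 cisplatin libraries. In H358 cells the 1.0 kb end had 35, 31 and 32 counts with DMSO, 23, 7 and 25 with oxaliplatin, and with cisplatin was listed in replicate 2 alone, with 6 counts. The 29.3 kb end had 75, 57 and 12 counts with DMSO, 22, 19 and 34 with oxaliplatin, and with cisplatin was listed in replicate 3 alone, with 10 counts. Their levels differed between cisplatin and DMSO by -3.29 ± 1.03 (log2, edgeR adjusted p = 0.0545) and -2.91 ± 1.12 (adjusted p = 0.0963), and passed in neither case. Without the 1 cisplatin library that lists it, each passed (adjusted p = 0.0118 for the 1.0 kb end without replicate 2, and 0.0121 for the 29.3 kb end without replicate 3). Against the distal end they differed by 0.23 ± 1.60 and 0.44 ± 2.18 (log2), with intervals too wide to read a direction from. The 29.3 kb end was listed in 6 of its 8 lists with DMSO or oxaliplatin in H358 and in 1 library of A549, and in no library of A549R or of polysomes.

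The 162.2 kb end, the nearest described end downstream of the 167.5 kb end, had 10, 11 and 5 counts in H358 DMSO libraries and was unlisted in all 3 cisplatin and all 3 oxaliplatin libraries. Over all lines the 162.2 kb end was listed in 8 of 12 DMSO and 1 of 12 cisplatin libraries, the 30.1 kb end in 11 and 2, the 64.0 kb end in 7 and 2, and the 178.4 kb end in 7 and 0. The distal end was listed in 12 and 11, and the 167.5 kb end in 6 and 8. The median total was 5854074 counts in the DMSO libraries and 5828348 in the cisplatin libraries. In H358 alone the totals were 8954897, 9058438 and 5248796 with DMSO and 6542394, 4225112 and 3765404 with cisplatin. The H358 lists held 82015, 82786 and 55234 peaks with DMSO and 72547, 55486 and 47459 with cisplatin. Whether the fewer listings go with depth was not tested. The 162.2, 30.1, 64.0 and 178.4 kb ends have 5 to 16 counts where they are listed, so an unlisted end is not shown to be absent.

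In the cytosol of A549 cells the distal end of PRKAR1B had 127, 232 and 98 counts with DMSO and 32, 34 and 9 with cisplatin. In A549R it had 120, 100 and 40 with DMSO and 13, 8 and 41 with cisplatin. In CPM the cisplatin libraries lie below the DMSO libraries in both lines, at 5.51 ± 2.82 against 32.2 ± 9.72 and at 3.21 ± 2.99 against 14.5 ± 1.33 (SD, n = 3). The level differed by -2.49 ± 0.59 (log2, edgeR adjusted p = 0.11) in A549 and by -2.11 ± 0.59 (adjusted p = 0.214) in A549R, and did not pass in either. Both passed in DESeq2 (adjusted p = 0.00175 and 0.0197), over peaks listed in every library (edgeR, 0.00847 and 0.0278) and with no count minimum, and A549R also passed without cisplatin replicate 3 (edgeR adjusted p = 0.0234). Of all peaks, 0.256% were called lower in A549 and 0.129% in A549R in the first edgeR fit, 1.81% and 1.22% in DESeq2, 3.94% and 2.10% over peaks listed in every library, and 1.16% and 0.992% with no count minimum.

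The 167.5 kb end had few counts in the cytosol. In A549 it had 6 and 5 counts with DMSO and 7 and 14 with cisplatin in replicates 1 and 2, and was unlisted in replicate 3 of both. In A549R it had 5 counts in DMSO replicate 1 and was unlisted in the other two, and 11, 9 and 8 counts with cisplatin. Its share in A549 was 2.21% ± 2.26 with DMSO and 15.7% ± 14.7 with cisplatin (SD, n = 3, exact permutation p = 0.4), and these overlap because replicate 3 with cisplatin has a share of 0% from 9 distal counts. In A549R the share was 1.33% ± 2.31 with DMSO and 38.4% ± 19.4 with cisplatin (SD, n = 3, exact permutation p = 0.1, adjusted p = 0.925), and the groups do not overlap, as in 7.39% of the pairs of neighbouring ends in this comparison. Cisplatin replicate 3 of A549R, which has the most distal counts of its group, has the lowest share, 16.3%, and replicates 1 and 2 have 45.8% and 52.9%.

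The ratio of both ends in the cytosol differed by 3.35 ± 1.29 (log2, edgeR adjusted p = 0.868) in A549 and by 5.05 ± 1.33 (adjusted p = 0.308) in A549R with cisplatin. Neither passed, in a fit that called 0.00918% and 0.00306% of pairs higher. In A549R the value ran from 4.36 to 8.65 when 1 library was left out, the highest without DMSO replicate 1, the only DMSO library that lists the end, and such a fit against counts of 0 sets no bound. DESeq2 called the difference in A549R (adjusted p = 0.028). Between A549R and A549 the ratio differed by -0.45 ± 1.34 with DMSO and by 1.26 ± 1.20 with cisplatin (log2, edgeR adjusted p = 1 and 0.727). The interval of 1.96 SE around the second, from -1.09 to 3.61, holds both directions. The share of the 167.5 kb end with cisplatin was 38.4% in A549R and 15.7% in A549 (exact permutation p = 0.3).

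The polysome libraries listed the distal end of PRKAR1B and did not list the 167.5 kb end. The distal end had 106, 253 and 135 counts with DMSO and 43, 95 and 29 with cisplatin, a difference of -1.69 ± 0.51 (log2, edgeR adjusted p = 1). For this contrast edgeR called 0.00% of 74786 peaks, while 1166 had a raw p below 0.05, and with DESeq2 11 were higher and 8 lower. With the replicate number as a block, 7591 peaks had a raw edgeR p below 0.05, and 0 were called higher and 0 lower. Against the cytosol, the level of the distal end in polysomes differed by -0.07 ± 0.44 with DMSO and by 0.77 ± 0.45 with cisplatin (log2, edgeR adjusted p = 0.921 and 0.193). In this fit short cytosol lists meet polysome lists of both kinds, and the median of all peaks moved by 1.17 with DMSO and 1.45 with cisplatin. Over peaks of the short lists only, the median moved by -0.04 and 0.12. The 2 differences of the distal end thus depend on the scaling.

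The 167.5 kb end was listed in 0 of 6 polysome libraries. With cisplatin the A549 cytosol libraries held 21 counts of it beside 75 of the distal end, a share of 21.9% (95% Wilson interval 14.8 to 31.1). The 3 polysome libraries with cisplatin held 0 beside 167, from 23090938 counts in all against 13264472 in the cytosol. If each of the 3 had the 4 counts that listing could hide, the polysome share would be 6.70%. With DMSO the cytosol share was 2.35%, and the polysome share would be 2.37% with 4 hidden counts in each library. Both polysome values rest on the assumption that an unlisted end has at most 4 counts. These sums and the Wilson interval carry counting error only and do not hold the spread between libraries, which in the cytosol with cisplatin runs from 0% to 29.2%. Between the listed peaks on either side of the 167.5 kb end, replicate 2 of both polysome groups skips no peak number, over 8677 bases with DMSO and 7485 with cisplatin. Replicate 1 of both skips 1 number, over 46970 and 45781 bases. The short lists of replicate 3 skip 1 number over 55800 bases with DMSO and 4 over 191987 bases with cisplatin. Numbers in the polysome lists run over both strands, so a skipped number need not be this end.

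Over libraries as replicates the polysome and cytosol shares with cisplatin were 0% and 15.7% ± 14.7 (SD, n = 3), with an exact permutation p = 0.4. The range of the cytosol libraries includes the polysome value. Cytosol replicate 3 is also at 0%. Only replicate 3 has lists of one kind in both fractions, and there both shares are 0%. The count minimum left this end out of the ratio test between fractions.

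Other PRKAR1B ends were listed in polysomes. The 30.1 kb end had 5, 16 and 7 counts with DMSO and 6 and 5 with cisplatin in replicates 1 and 2. In A549 cytosol it had 8, 13 and 8 counts with DMSO and was unlisted in all 3 cisplatin libraries. Its ratio to the distal end between polysomes and cytosol differed by -0.28 ± 0.85 with DMSO and 3.72 ± 1.26 with cisplatin (log2, edgeR adjusted p = 1 and 0.245), and neither passed. The 64.0 kb end had 5 and 14 counts with DMSO and 8 and 10 with cisplatin in polysome replicates 1 and 2, against 1 listing with 7 counts in the 6 A549 cytosol libraries. The 169.7 kb end was listed in 2 libraries, both of polysomes with cisplatin (5 and 9 counts), and the 170.9 kb end in 2 libraries of polysomes with DMSO (5 and 6 counts). Both lie upstream of the 167.5 kb end and were in no short list.

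Across the groups the order of mean shares of the 167.5 kb end was H358 cisplatin (89.4%), H358 oxaliplatin (54.2%), A549R cisplatin (38.4%), H358 DMSO (25.9%), A549 cytosol cisplatin (15.7%), A549 cytosol DMSO (2.21%), A549R DMSO (1.33%) and both polysome groups (0%). H358 RNA was of total cells, A549R RNA of the cytosol and A549 RNA of the cytosol or polysomes. Between H358 and the other lines, line and RNA fraction cannot be told apart. In this order, the ranges of A549R cisplatin, H358 oxaliplatin, H358 DMSO and A549 cytosol cisplatin overlap with that of at least 1 neighbour, A549R cisplatin with each of the other 3. The ranges of A549 cytosol cisplatin, A549 cytosol DMSO and A549R DMSO each include the 0% of both polysome groups, so these 5 groups all overlap.

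The peaks elsewhere whose group means most resembled those of the 4 main ends were given by correlation of mean log2(CPM + 0.5). For the 167.5 kb end of PRKAR1B the closest of 12147 candidates lies at chr16:3368346-3368665 (plus strand, r = 0.993 over 9 groups), and for its distal end the closest of 10734 at chr12:98938723-98938928 (plus strand, r = 0.989). For the 13.9 kb end of PHF19 it lies at chr7:146864963-146865045 (plus strand, r = 0.998 over the 6 groups with long lists), and for its distal end at chr9:136207739-136208276 (minus strand, r = 0.98 over 9 groups). The points share libraries and list kind, and the highest of so many correlations is a description only.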

How the data were processed

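Peaks of 3'-end sequencing of poly(A)+ RNA, primed with anchored oligo-dT, were read from 27 deposited lists. The values are raw read counts per peak, as deposited by the authors. Bowtie2 2.2.5, bedtools 2.17.0, SAMtools 1.1 and the build mm9 appear, without roles, in the submitters' processing notes, while the positions fit human hg19. How peaks were called and filtered is not given in the sources used here.

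Peaks were merged over libraries by strand with bedtools 2.31.1. Levels were tested with edgeR 4.0.16 (quasi-likelihood test, TMM scaling, mean count of at least 5, Benjamini-Hochberg adjustment, threshold 0.05) in 4 fits: H358; cytosol; polysomes; A549 cytosol with polysomes. The ratio of an earlier to the distal end was tested in the same fits with a term for each library, beside every peak with the strongest peak within 50 kb downstream on its strand. Shares were compared by exact permutation. Scripts were checked on counts simulated for H358 cisplatin against DMSO. These groups were fitted alone, and changes were planted only in peaks with mean counts well above the minimum. The rates that follow need not hold for ends with fewer counts or for the main fits. At the spread simulated, the level test called 0.901% of planted 2-fold and 75.3% of planted 4-fold changes in the right direction. The ratio test called 0% and 30.8%. A difference that did not pass is therefore not shown to be absent. Alternatives were DESeq2 1.42.0, other scaling, filters and merging, a replicate block, and leaving out each library. The members, lists and tests were chosen with earlier results of these data known. Ends in at least 3 lists are described each.

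Same-numbered libraries deviated together (correlation over 0.1 for each of the 3 numbers) for oxaliplatin against DMSO and for A549R against A549 with DMSO. They also did so for cisplatin against DMSO in A549 cytosol, A549R and polysomes, and for polysomes against cytosol. They did not for cisplatin against DMSO or against oxaliplatin in H358, or for A549R against A549 with cisplatin. The labels give the numbers only. The genes of the Polycomb and kinase complexes are not analysed here, since no hg19 annotation was used.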

Additional observations from a re-analysis of the deposited data

How the results depend on the processing

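Of 436 alternative values for 35 results, 372 were counted as the same and 8 as reversed. For levels and ratios, same means that direction and side of the threshold were kept. For shares, 100 of the 372, it means a difference within the larger group SD of the main one. Where the main share difference was below that SD, a change of sign was not counted as reversed. Leaving out 1 library gave share differences of -0.84 to 2.81 for the 13.9 kb end of PHF19 in H358, and -0.52 to 1.67 in A549R. Groups fitted alone, peaks of a short list only, long lists only and unlisted ends at 4 counts were chosen after seeing the data. In each case below the cause was not tested, unless it is the number of libraries or peaks. All values are log2 differences from edgeR unless DESeq2 or a share is named.

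For the ratio of the 167.5 kb to the distal end of PRKAR1B in H358, cisplatin against DMSO, the call was lost with the replicate block (4.79, adjusted p = 0.104), with no count minimum (4.80) and with the groups fitted alone (4.73), and leaving out 1 library gave 3.90 to 5.25. The replicate numbers of these groups share only a number; the block left 25 pairs called higher and 22 lower, against 868 and 1270 without it. The block changed no other call except that of the distal end with oxaliplatin. DESeq2 called this ratio for oxaliplatin against DMSO (1.77), cisplatin against oxaliplatin (2.90) and cisplatin in A549R (5.64). Leaving out 1 library gave 2.14 to 3.48 for cisplatin against oxaliplatin. The level of the 167.5 kb end in H358 with cisplatin passed with RLE scaling (1.21), with DESeq2 (1.22), over peaks listed in every library (1.17) and over peaks of a short list (1.16). The polysome against cytosol difference in share with cisplatin was 0 in the replicate whose lists are of one kind.

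Direction reversed where the estimates were small or rested on 1 listing. Leaving out 1 library gave -0.24 to 0.45 for the 13.9 kb ratio of PHF19 in H358 and -0.15 to 0.59 in A549R, -3.89 to 1.75 for the 1.0 kb ratio of PRKAR1B in H358, and -5.06 to 1.93 for its 29.3 kb ratio, which was -0.79 in DESeq2. Ends of under 5 counts cannot be read, and an end in no short list has no value there.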
